A study of Neurospora crassa with 10 samples.

Results

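The genes described here encode the smallest proteins of the filamentous fungus Neurospora crassa. A gene was taken when the coding sequence (CDS) of its longest transcript, summed over CDS records without the stop codon, was under 300 bp, which is under 100 codons. This holds for 337 of the 9730 protein-coding genes annotated on the 7 chromosomes (Linkage Groups, LGs) of the corrected assembly nc14, or 3.46 per 100 genes. They are called small-protein genes below, and the 9393 protein-coding genes with a longer CDS are the other genes. The annotation accompanies a chromosome conformation (in situ Hi-C) study of germinated, unsynchronized conidia of the wild type strains N150 and N3752. The 10 datasets of that study were made with DpnII, with MseI or with both restriction enzymes, and were amplified with 8, 15 or 23 PCR cycles where the labels give a number, and 2 of them are merged from others. For both strains the labels name no allele beyond wild type, and all cultures were crosslinked with formaldehyde. The annotation belongs to the assembly and holds no value per library, so no library, strain or enzyme was compared.

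The genes were chosen by CDS length, and every value that contains it is therefore a description. Such values are CDS length, introns per kb, UTR share and the intron share of the coding stretch. Intron length, gene number and position were not used in the choice. UTR length entered it only through the choice of the longest transcript in genes with more than 1. All values come from 1 annotation and have no replicate error. Genes are not replicates of each other, so shares and medians are set side by side with those of the other genes and no test was made.

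Proteins of this size are known from several places in a fungal cell. Small subunits hold together membrane complexes of the mitochondrion, small chaperones carry proteins across the mitochondrial intermembrane space, and short secreted or cytosolic peptides serve as mating pheromones or bind metals. Because a short reading frame can arise by chance, gene annotation programs find short genes harder to tell from noncoding DNA than long ones. A transcript also holds untranslated regions (UTRs) before and after the CDS, and introns can lie in either part.

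The shortest CDS of the annotation, 72 bp or 24 codons, belonged to mfa-1 (NCU16992, LG V, 3780209 to 3781369 of nc14, minus strand), which encodes a mating pheromone precursor. The next was NCU16635 (LG III, 1584834 to 1585858) with 75 bp and 1 CDS intron, the only small-protein gene without an entry in the RefSeq table of assembly NC12. The copper metallothionein gene cmt (NCU05561, LG VI, 1513376 to 1514037) had 78 bp, followed by NCU01483 (LG II) with 87 bp and NCU08013 (LG IV) with 120 bp. All 5 were shorter than any other CDS of the annotation. The median CDS of the small-protein genes was 252 bp (84 codons), against 1299 bp (433 codons) for the other genes.

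Of the 337 genes, 21 (6.23%) carried a gene symbol in the RefSeq table, against 11.7% of the other genes. Most of these 21 symbols belong to the mitochondrion, a share that was not computed for the other genes with a symbol. The translocase of the outer membrane (TOM), the entry gate for mitochondrial proteins, contributed its 3 smallest subunits, tom5 (NCU02474, 50 codons), tom7 (NCU04181, 53 codons) and tom6 (NCU05772, 60 codons). The other 4 genes with a tom symbol were tom20, tom22, tom40 and tom70, and the 7 genes together had a median of 154 codons. Of 11 genes with a tim symbol, 4 were under 100 codons: tim13 (NCU06244, 86), tim9 (NCU00198, 88), tim10 (NCU00930, 90) and tim8 (NCU11311, 92). These 4 encode the small chaperones of the intermembrane space, and none of the channel or motor genes of the inner membrane (such as tim23 with 238 codons or tim44 with 526) was among them. The shortest tim gene outside the limit, tim14, was close to it with 105 codons.

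Respiratory complex I (NADH dehydrogenase) supplied the largest set. Of its 29 genes with a nuo symbol, 6 were small-protein genes, namely nuo6.6 (NCU00160, 75 codons), nuo9.5 (NCU00670, 82), nuo9.8 (NCU04781, 86), nuo10.4 (NCU01467, 92), nuo10.6 (NCU09002, 93) and nuo10.5 (NCU03156, 94). The median of all 29 was 186 codons and the longest, nuo78, had 744. The next longer ones, nuo12.3, nuo11.5 and nuo11.6, had 104, 105 and 105 codons and fell just outside the limit.

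The remaining named genes have other roles. The clock-controlled and glucose-repressible gene ccg-1 (NCU03753) had 71 codons and was the only gene under the limit among 9 with a ccg symbol. Both con-10 (NCU07325, 86 codons) and con-6 (NCU08769, 93 codons), which are expressed during conidiation, were small, while con-8 (176) and con-13 (340) were not. The G protein gamma subunit gene gng-1 (NCU00041) had 93 codons, against 353 to 359 for the alpha and beta subunit genes gna-1, gna-2, gna-3 and gnb-1. The list is completed by 1 of 13 V-ATPase genes (vma-9, NCU07681, 75 codons) and 1 of 7 genes with a crp symbol for cytosolic ribosomal proteins (crp-7, NCU08627, 87 codons). These families were read from symbols alone and after the values were seen, and they leave out every gene that has only an NCU number.

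**Figure D1:**
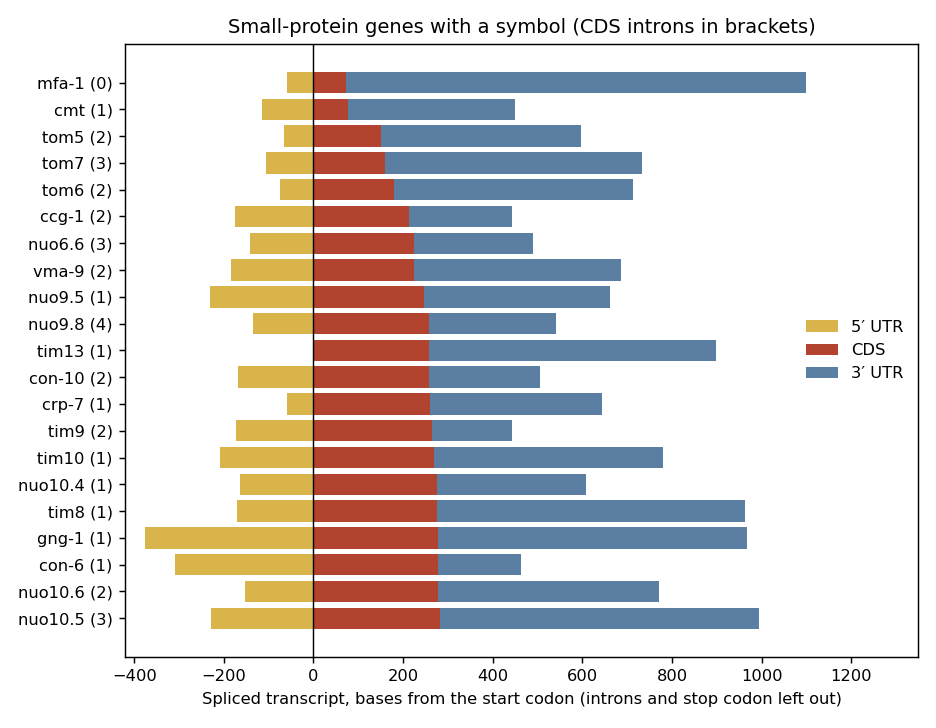
Spliced transcripts of the 21 small-protein genes with a symbol, ordered by CDS length from mfa-1 at the top to nuo10.5 at the bottom. Bars give bases of 5′ UTR (left of 0), CDS and 3′ UTR (right of 0), and the number in brackets is the count of CDS introns. In mfa-1 the 3′ UTR of 1028 bases is far longer than the CDS of 72, and tim13 is the only gene of the 21 drawn without a 5′ UTR.

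The number of genes fell steeply below 100 codons. There were 173 genes of 100 to 109 codons and 171 of 110 to 119, and below the limit 136 of 90 to 99, 75 of 80 to 89, 67 of 70 to 79, 38 of 60 to 69 and 15 of 50 to 59. Only 6 genes had fewer than 50 codons. At the limit itself, 14 genes had a CDS of exactly 297 bp and 19 had exactly 300 bp. Among those just inside were NCU09813 and NCU11258 (LG I and LG VII) and NCU16616, NCU16825 and NCU17126 (LG III, LG IV and LG VI), all with 297 bp. NCU00011, NCU00224 and NCU00530 lay just outside with 300 bp.

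Genes of the classes on each side of the limit were compared for introns, gene numbers and UTRs. No intron in the CDS was annotated in 20 of the 136 genes of 90 to 99 codons (14.7%), against 59 of the 173 genes of 100 to 109 codons (34.1%). One class further away on each side the shares were 14.7% (80 to 89 codons) and 26.3% (110 to 119 codons). Locus identifiers (NCU numbers) above 10000 were carried by 17.6% of the genes of 90 to 99 codons, against 30.1% of those of 100 to 109, and by 25.3% of those of 80 to 89, against 25.7% of those of 110 to 119. An annotated UTR was missing in 38.2% of the genes of 90 to 99 codons, against 39.9% of those of 100 to 109, and in 29.3% of those of 80 to 89, against 45.6% of those of 110 to 119. Only the share of intron-free genes was clearly lower under the limit in both of these pairs of classes. Further from the limit it varied, with 16 of 67 genes at 70 to 79 codons and 7 of 38 at 60 to 69. Above the limit, 43 of 147 genes of 120 to 129 codons and 26 of 149 of 130 to 139 were intron-free. The shares of single classes thus overlapped across the limit. Neither intron nor UTR was annotated in 6 genes (4.41%) of 90 to 99 codons and in 19 (11%) of 100 to 109 codons. The sources used here do not say whether the annotation applied a length rule near 100 codons, and its part was not tested.

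**Figure D2:**
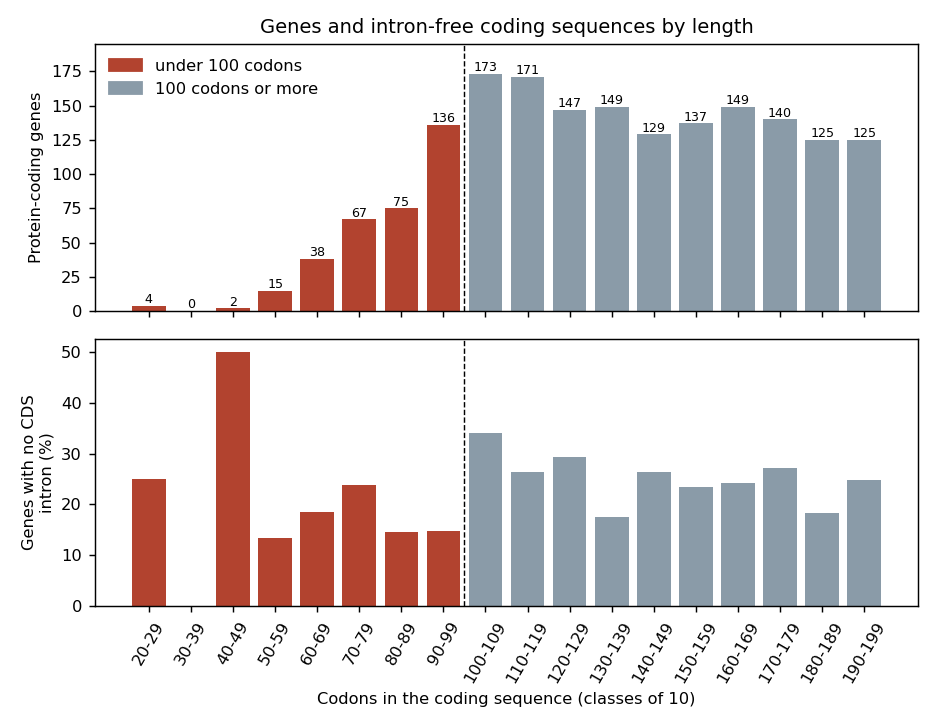
Protein-coding genes by number of codons in classes of 10, with genes under 100 codons in red and longer ones in grey (dashed line, the limit). The upper panel counts genes and the lower panel gives the percentage with no CDS intron, which is 14.7% at 90 to 99 codons and 34.1% at 100 to 109. The classes below 50 codons hold 4, 0 and 2 genes, so their percentages rest on very few genes.

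Over all 337 small-protein genes, 58 (17.2%) had no intron in the CDS, against 22.4% of the other genes. This order turned when the limit was set at 360 bp, where 23.8% had none, against 22.1%. With a limit of 240 bp the shares were close, at 21.4%, against 22.3%. Exactly 1 CDS intron was the most common state, in 162 genes (48.1%), against 34.1% of the other genes. The share with 3 or more was 12.2% (41 genes), against 20.9%. A CDS split once was thus the most common form in both groups, with a higher share in the small-protein genes. It was also the most common form at 300 to under 600 bp of CDS, with 31.9%. When UTR introns were counted as well, 39 genes (11.6%) had a single exon, against 18.6%. The median number of exons was 2 in both groups and the mean was 2.49, against 2.75.

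Per gene, the small-protein genes had 1.33 CDS introns on average, against 1.61 in the other genes. The 4 classes of longer CDS (from 300, from 600, from 900 and from 1500 bp) had 1.42, 1.36, 1.49 and 1.84. The number per gene therefore differed by less than 1.5 times over the classes. Divided by CDS length it changed strongly, with 5.41 introns per kb of CDS in small-protein genes, against 1.02 in the other genes. The same 4 classes had 3.22, 1.82, 1.26 and 0.726 per kb. This ratio is largely set by its denominator, which is the length that chose the genes.

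Some of the smallest reading frames were cut into many pieces. NCU03766 (LG V), with a CDS of 252 bp, and NCU16844 (LG IV), with 273 bp, each had 5 CDS introns, the highest number among the 337. A further 8 genes had 4, among them nuo9.8 (258 bp), NCU03233 (177 bp), NCU04127 (210 bp) and NCU10897 (216 bp). In NCU03233 this is more than 1 intron for every 50 coding bases. Of the 21 genes with a symbol, mfa-1 was the only one without a CDS intron, and the mean of the 21 was 1.71.

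The introns themselves were longer than elsewhere in the annotation. The median CDS intron of small-protein genes was 104 bp (quartiles 75 and 179, 449 introns), against 74 bp (62 and 106, 15077 introns) in the other genes. Genes with a CDS of 300 to under 600 bp had a median of 107 bp, and the 3 longer classes had 84, 75 and 68 bp. Long introns were thus shared with the next longer class and not limited to genes under 300 bp. In small-protein genes the first CDS intron had a median of 109 bp and later ones 94.5 bp, against 78 and 70 bp in the other genes, so both were longer. Introns over 200 bp made up 21.8% of the total, against 9.74% in the other genes and 23.6% in those of 300 to under 600 bp. The longest intron of a small-protein gene had 855 bp. Introns took up 45.3% of the stretch from the first to the last coding base. This was 10% in the other genes and 33.3% in those of 300 to under 600 bp. The share contains the CDS length and is raised by a short CDS.

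Where introns cut the reading frame differed in position but hardly in phase. The first CDS intron lay after a median of 74 coding bases in small-protein genes, against 205 in the other genes, which the short CDS limits. It lay within the first 30 coding bases in 56 of the 279 small-protein genes with a CDS intron (20.1%), against 8.57% of the other genes with one and 16.7% of those with a CDS of 300 to under 600 bp. This share was 25% in small-protein genes with an annotated UTR and 9.2% in those without, against 8.6% and 8.39% of the other genes. Introns between codons (phase 0), after the first base (phase 1) and after the second base (phase 2) made up 38.1%, 34.5% and 27.4%, against 38.8%, 34.3% and 27%. The phases differed by less than 1 percentage point, although the introns stood in much shorter frames.

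**Figure D3:**
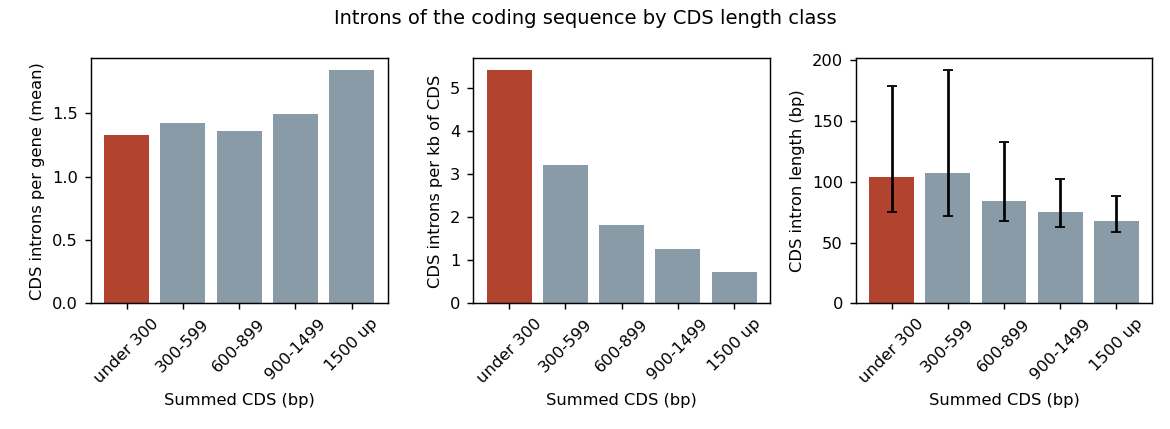
CDS introns by CDS length class, with genes under 300 bp in red and 4 longer classes in grey. The panels give the mean number per gene (1.33 in the shortest class), the number per kb of CDS (5.41) and the median intron length in bp with quartiles as error bars (104, from 75 to 179).

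A UTR took up a median of 64% of the spliced transcript of small-protein genes, against 28.4% in the other genes, and over 50% of the transcript in 217 genes (64.4%), against 18.1%. With a short CDS such a share is high by construction. In bp, the summed UTR was shorter, with a median of 417 bp (quartiles 0 and 716), against 594 bp (263 and 978). Genes without any UTR entered these medians with 0.

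No UTR at all was annotated in 101 small-protein genes (30%), against 16.4% of the other genes. The class of 300 to under 600 bp had 34.5%, and the share then fell to 20.9%, 14.2% and 9.85% in the longer classes. Missing UTRs were thus a feature of short genes on both sides of 100 codons. None of the 101 had a symbol or a second transcript, which were also scarce among the other genes without a UTR (2.78% and 0.0647%). Their CDS introns were longer (median 148 bp) than those of the 236 small-protein genes with a UTR (94.5 bp), and the same held in the other genes (93 and 72 bp). The distance to the next gene upstream had a median of 1707 bp in the 101 and 634.5 bp in the 236. These gaps run between annotated gene ends, so a missing UTR adds to them, and a model without a UTR does not show that the transcript lacks one.

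Among genes with both UTRs annotated, the 5′ and the 3′ end behaved differently. In the 217 small-protein genes of this kind the median 5′ UTR was 179 bp (quartiles 116 and 309), against 333 bp (186 and 564) in 7145 other genes. It grew with CDS length, from the shortest to the longest of the 5 classes, as 179, 243, 273, 315 and 400 bp. The median 3′ UTR was 401 bp (252 and 587), against 356 bp (222 and 561), and changed little over the classes (401, 395.5, 372, 342 and 350 bp). The 3′ UTR was the longer of both in 177 of the 217 genes (81.6%), against 51.7% of the other genes.

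**Figure D4:**
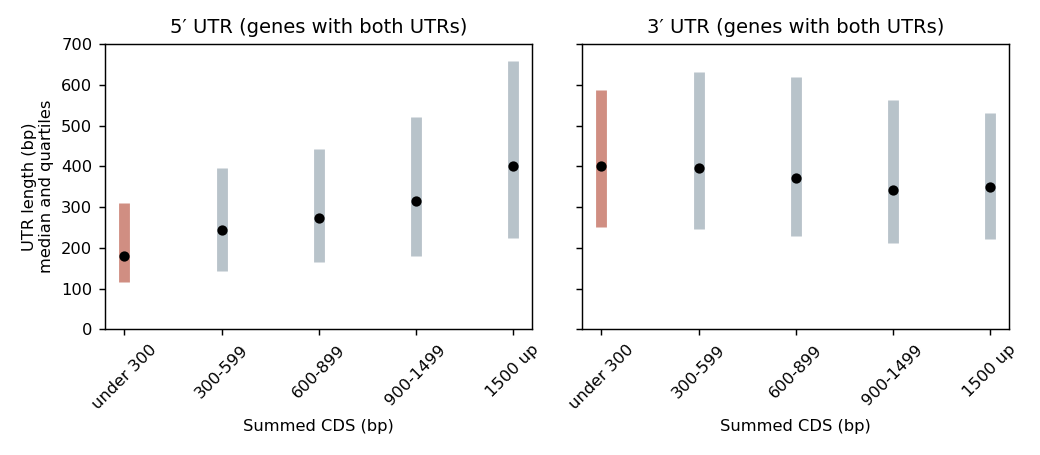
Lengths of the 5′ UTR (left) and 3′ UTR (right) in genes with both annotated, by CDS length class, with genes under 300 bp in red. Points are medians and bars run between the quartiles. The 5′ median climbs from 179 bp in the shortest class to 400 bp in the longest, while the 3′ median stays between 342 and 401 bp.

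Single genes showed both extremes. The longest summed UTR belonged to NCU11216 (222 bp of CDS, a 5′ UTR of 1196 bp and a 3′ UTR of 1053 bp), followed by NCU03889 (608 and 1518 bp) and NCU08867 (975 and 859 bp). At the other end, NCU00781 had 20 bp, NCU08635 had 22 bp and NCU08438 had 26 bp of UTR in all. Summed UTRs over 1000 bp occurred in 31 small-protein genes (9.2%), mfa-1 (1086 bp) and gng-1 (1064 bp) among them, against 23.8% of the other genes. In mfa-1 the CDS was a small part of the transcript, of which 93.5% was UTR, and in cmt the UTR share was 85.7%.

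The NCU number is the locus identifier of a Neurospora gene. Small-protein genes ran from NCU00009 to NCU17285, which is nearly the whole range in use. Numbers above 10000 were carried by 70 of them (20.8%), against 9.42% of the other genes, and numbers above 16000 by 43 (12.8%), against 4.77%. In each class of 1000 numbers below 10000, between 2.02 and 3.89 of 100 genes were small-protein genes. The share was 5.37 in the 10000s, 8.33 in the 11000s, 8.92 in the 16000s and 8.26 in the 17000s. Only the 12000s (1 of 58 genes) and the 15000s (0 of 8 genes) were lower, with few genes in each. High numbers were common up to 600 bp of CDS, where 22.2% of the class of 300 to under 600 bp lay above 10000.

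Missing UTRs were rare among the small-protein genes with numbers above 16000, but not among those from 10001 to 16000. Of the 43 small-protein genes above 16000, 2 (4.65%) had no UTR, against 130 of the 448 other genes above 16000 (29%) and 66 of the 232 with a CDS of 300 to under 600 bp (28.4%). Of the 27 numbered from 10001 to 16000, 12 (44.4%) had none, against 95 of the 437 other genes in that range (21.7%). Up to 10000, 32.6% of the 267 small-protein genes had no UTR, against 15.5% of the other genes. An intron-free CDS was found in 25.7% of small-protein genes above 10000 and in 15% of those up to 10000, and in 34.2% and 21.2% of the other genes, so high numbers went with more intron-free genes in both groups.

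**Figure D5:**
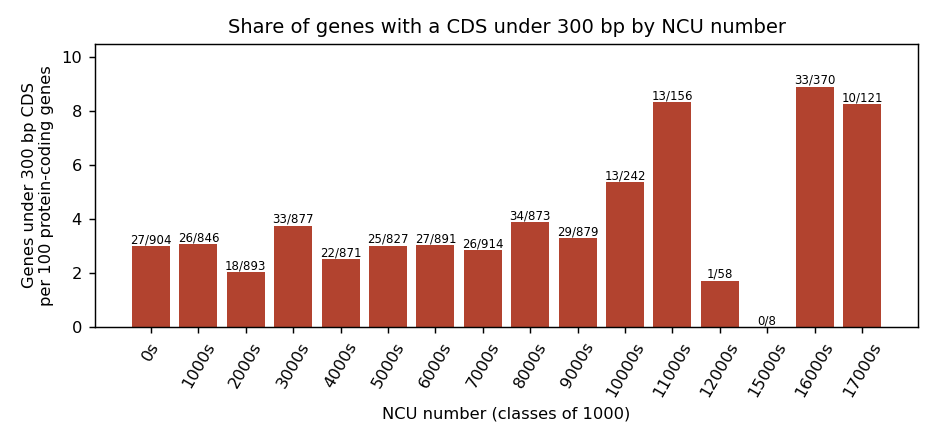
Small-protein genes per 100 protein-coding genes in each class of 1000 NCU numbers, with the counts above the bars. The classes up to the 9000s lie between 2.02 and 3.89 per 100, and the 11000s, 16000s and 17000s between 8.26 and 8.92.

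The small-protein genes were spread over all 7 LGs. LG I had 80, LG V 66, LG II and LG IV 42 each, LG III 40, LG VI 36 and LG VII 31. Per 100 protein-coding genes this was 4.18 on LG V, 4.09 on LG II, 3.64 on LG VI, 3.41 on LG I, 3.19 on LG III, 2.96 on LG VII and 2.83 on LG IV. The highest share was 1.48 times the lowest, and 1.89 times with a limit of 240 bp. The ribosomal RNA genes at the left end of LG V do not enter these shares. On the plus strand lay 162 of the 337 (48.1%), against 50.4% of the other genes.

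Near the chromosome ends the shares of small-protein genes and other genes differed little, in an order that changed with distance. Within 50 kb of an end, counted from the first base and from the end of the last gene of an LG, lay 4 small-protein genes (1.19%), against 1.91% of the other genes. These were NCU16718, the last annotated gene of LG III (5272185 to 5273718), NCU07142, which starts 3548 bp from the left end of LG VI, NCU09630 (19041 bp from the left end of LG II) and NCU10427 (24897 bp from the right end of LG III). The next, NCU09512, lay 56081 bp from the left end of LG III. The order turned at other distances, with 0.89% of the small-protein genes within 20 kb, against 0.809%, and 4.15% within 100 kb, against 3.66%. The share within 50 kb rests on 4 genes.

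Beside a gene-free interval of 10 kb or more, as the gene at either edge, stood 19 small-protein genes (5.64%), against 4.18% of the other genes. This order turned among genes with an annotated UTR, with 2.97% of the small-protein genes, against 3.95% of the other genes. Among genes without a UTR the shares were 11.9% and 5.37%. The 19 genes bordered 20 of the 214 gene-free intervals of this length. By LG, 9 of the 19 were on LG V, 7 on LG I and 3 on LG III, against 63, 96 and 44 other genes beside the 37, 56 and 24 intervals there. None was on LG II, LG IV, LG VI or LG VII, against 48, 56, 38 and 48 other genes beside 25, 29, 19 and 24 intervals. The longest interval with a small-protein gene at its edge had 321175 bp, the longest of LG V, with NCU09667 (1281122 to 1281888, a CDS of 252 bp and 2 introns) on its left. The next were intervals of 52470 bp beside NCU09802 and 42597 bp beside NCU16405 on LG I, and of 31899 bp beside NCU01262 and 27885 bp beside NCU01400 on LG V. NCU10069 (LG I, 4340475 to 4341829) was the only small-protein gene between a pair of such intervals, of 20756 bp on its left and 22254 bp on its right (0.297% of the 337, against 0.149% of the other genes).

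Small-protein genes beside these intervals often lacked UTRs. Of the 19, 12 (63.2%) had none, against 28% of the 318 small-protein genes elsewhere and 21.1% of the 393 other genes beside such intervals. NCU09667 and NCU01262 are examples, whereas NCU10069 had a summed UTR of 1071 bp. A missing UTR lengthens the interval beside a gene, and its part in the count was not tested. No gene with a symbol was among the 19.

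Small-protein genes overlapped other genes about as often as the rest, in 79 cases (23.4%), against 22.9%. On the opposite strand lay the partner in 74 of the 79 (93.7%), against 96% of the other genes that overlap. The share depended on the UTR annotation, with 29.7% of those with a UTR and 8.91% of those without, against 25.8% and 8.03% of the other genes. Of the 21 genes with a symbol, 12 (57.1%) overlapped a gene on the opposite strand, including cmt, tom5, tim8, tim10, tim13, vma-9, con-6 and 5 genes of complex I. All 21 had an annotated UTR, and the share was not computed for the other genes with a symbol. To the next gene that does not overlap, the median distance was 1079 bp upstream and 1351 bp downstream, against 850 and 1029 bp for the other genes. Among genes with a UTR the upstream order turned, with 634.5 bp, against 753 bp, while downstream it was 1139 bp, against 994 bp. Among genes without a UTR the distances were 1707 and 1634 bp, against 1310 and 1179 bp.

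Of the 337 genes, 3 were annotated wholly inside another gene (0.89%, against 0.713% of the other genes). These were NCU00149 inside NCU00148 on LG III, NCU07995 inside NCU07994 on LG IV and NCU10770 inside NCU00801 on LG I. More than 1 transcript was annotated for 28 small-protein genes (8.31%, against 9.26%), among them tom7 with 3 transcripts, and tim10 and crp-7 with 2 each.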

How the data were processed

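The authors deposited 1 gene annotation of nc14, the assembly in which they placed supercontigs with MseI Hi-C data. Its 81158 records list features by 1-based start and end position (bp), unnormalized, and values of single samples fill 0 columns. The sources used here do not give the tool behind the gene models. No sequencing depth applies.

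For each gene the transcript with the largest summed exon length was used. CDS records exclude the stop codon in all of the 10785 coding transcripts that have a stop codon record, which 1 lacks. All 336 small-protein genes with an entry in NC12 (RefSeq) had the same gene length there. NC12 gave symbols and gene lengths only. Gene-free intervals are stretches between neighboring genes, without those at chromosome ends. UTRs are exon bases outside CDS and stop codon. Code in Python 3.11.15 (numpy 2.4.6, pandas 2.3.3, scipy 1.17.1, matplotlib 3.10.9) was tested on 50 simulated annotations and recovered all planted lengths, introns, UTRs and intervals in 50.

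The gene set and lists were chosen with earlier results of these data known. Named genes are those with the shortest and longest CDS, a symbol, the most introns, the longest and shortest UTRs, places at ends or long intervals, runs of 3, genes inside others and the first genes outside the limit. Grouping by protein product was planned and not run. Alternatives tried were the length limit, transcript choice, start and stop codon records, kinds of introns and UTRs, distances, interval lengths and NCU limits.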

Additional observations from a re-analysis of the deposited data

How the results depend on the processing

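No paired analysis was possible because no library has values of its own in an annotation. The count of 337 genes was 336 with the transcript of largest CDS, 341 with any transcript, 323 with the stop codon joined and 337 with start and stop codon records. It was 126 with a limit of 240 bp and 681 with 360 bp. By construction, LG shares (per 100 genes, LG I to LG VII) were 1.28, 1.65, 0.956, 0.875, 1.65, 1.42 and 1.34 at 240 bp, and 6.86, 7.49, 6.85, 6.33, 8.04, 7.29 and 6.11 at 360 bp. LG II and LG V were highest at each limit. Genes without a CDS intron made up 23.8% at 360 bp, against 22.1% of the other genes there, which turned the order, and 21.4% at 240 bp, against 22.3%. With UTR introns counted, 11.6% had no intron, against 18.6%. With both UTRs annotated, the median UTR share was 72.1%, against 35.1%, and the median UTR length 643 bp, against 756 bp. Within 100 and 200 kb of an end lay 4.15% and 7.42%, against 3.66% and 7.2%, and within 20 kb 0.89%, against 0.809%, so the order at 50 kb was turned at all 3 distances. Beside gene-free intervals of at least 5 kb stood 13.9%, against 10.2%, and of at least 20 kb 2.08%, against 1.96%. Within 5 and 10 kb of an edge lay 9.5% and 14.8%, against 8.4% and 13.9%. NCU numbers above 9000 were carried by 29.4%, against 18.5%. The alternatives with NCU numbers up to 10000 alone were chosen after seeing the data and gave a median UTR share of 64.1%, against 28.7%, a median UTR length of 417 bp, against 620 bp, and an interval share of 5.62%, against 3.95%.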

Other observations

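At 14 places, small-protein genes followed each other with no other protein-coding gene between them, with 11 pairs and 3 runs of 3 (31 genes in all). On LG I, NCU02081, NCU11210 and NCU02080 (1427429 to 1432828) had CDS lengths of 243, 267 and 258 bp. On LG IV, NCU08013, NCU08014 and NCU08015 (3916595 to 3922160) had 120, 276 and 279 bp, and on LG V, NCU16993, NCU01261 and NCU01262 (3795529 to 3801874) had 246, 177 and 288 bp. In none of these runs did all 3 genes lie on the same strand. One pair holds con-6 on LG III, whose neighbor NCU08770 on the opposite strand has a CDS of the same length, 279 bp. These runs were not tested for being more frequent than for other genes.

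A CDS without intron in a transcript without UTR, the barest gene model, occurred in 14 small-protein genes (4.15%), against 3.63% of the other genes.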
